A study of Mus musculus with 13 samples.

Results

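RNA from transposons and piRNA loci was compared between B16 mouse melanoma cells that lack thymine DNA glycosylase (Tdg KO, 2 libraries) and wild-type B16 cells (WT, 2 libraries), all with Trp53 intact. The libraries were chosen by their labels alone and are 4 of 13 in the series. The others are B16 cells without Trp53 (Trp53 KO, 2 libraries) or without both genes (Tdg Trp53 DKO, 2 libraries), used here only to set the spread and for 1 contrast of Tdg loss across backgrounds, and KP lung adenocarcinoma cells, not used here. Total RNA was depleted of ribosomal RNA and made into strand-specific libraries. The labels give no clone number or knockout method for the Tdg KO cells, and do not say whether replicates came from separate cultures, so p-values measure only the spread between these libraries. Levels of Tdg, Trp53 and melanocyte markers were not analysed here.

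Tdg removes thymine and uracil from mismatches with guanine, and removes the oxidised forms of methylcytosine in the last step of active DNA demethylation. Transposons are kept silent largely by DNA and histone methylation. LINE-1 elements copy themselves through RNA, intracisternal A particles (IAP) and other endogenous retroviruses do so with long terminal repeats (LTRs), and the short B1 and B2 elements (SINEs) borrow the LINE-1 machinery. B1 arose from 7SL RNA, the RNA of the signal recognition particle. piRNA loci are the sources of PIWI-bound small RNAs in germ cells. Many lie over ordinary genes, and the coverage used here does not separate a piRNA precursor from the gene's mRNA.

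Coverage, the mean number of reads over each base of an element, was dominated by 7SL. Its sense coverage was 592700 and 259700 in WT libraries 1 and 2, and 296800 and 185600 in Tdg KO libraries 1 and 2. That was 94.3% and 89.6% of all coverage in WT and 90.9% and 89.1% in Tdg KO, and the groups overlapped (log2 change -0.74, 95% interval -3.69 to 2.20, adjusted p = 1.0 by limma). The entry is named as a 7SL pseudogene of Cavia. Antisense 7SL coverage was 246.8 and 16.4 in WT and 5.43 and 5.81 in Tdg KO. The groups did not overlap, but WT library 1 alone was high (adjusted p = 1.0 by limma), and the ratio of Tdg KO to WT went from 0.0427 to 0.342 without it.

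Outside 7SL, pairs of libraries of different genotype were not consistently further apart than pairs of 1 genotype. Sense coverage summed over the other 527 repeat entries was 18680 and 15900 in WT and 16370 and 12340 in Tdg KO, a ratio of 0.830 (two-sided exact permutation p = 0.667, where 2 against 2 cannot go below 0.333). Summed antisense coverage was 6975 and 8242 in WT and 7454 and 5802 in Tdg KO, a ratio of 0.871 (two-sided exact permutation p = 0.667). The groups overlapped on both strands. In the median over features, taking each strand of an element as 1 feature, the 2 WT libraries differed by 0.523 on the log2 scale and the 2 Tdg KO libraries by 0.477, while WT library 2 and Tdg KO library 1 differed by 0.320. When a factor per library, its median ratio to the average library, was divided out, WT library 2 lay 0.346 and 0.313 from the Tdg KO libraries and 0.515 from WT library 1. On that scale WT library 1 stood apart from the other 3. As deposited it did not, since WT library 1 and Tdg KO library 2 differed by 0.481, against 0.543 between WT library 2 and Tdg KO library 2. After median-ratio scaling WT library 1 lay 0.391 and 0.299 from the Trp53 KO libraries, and WT library 2 lay 0.51 and 0.61 from them. Most results in which WT library 1 alone is high among the WT and Tdg KO libraries are also given without it. Fewer cells expressing an element and less RNA per cell cannot be told apart in these bulk samples.

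**Figure D1:**
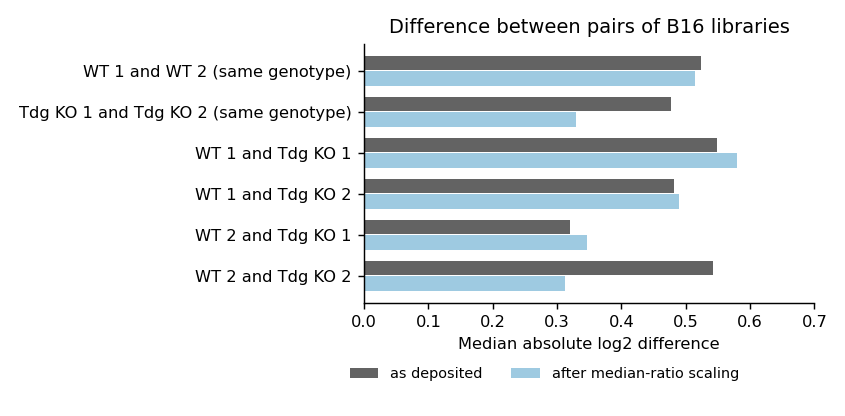
Median absolute log2 difference over features for each pair of the 4 B16 libraries, as deposited (dark bars) and after median-ratio scaling (light bars). WT library 2 lies closer to Tdg KO library 1 (0.320 as deposited) than to WT library 1 (0.523).

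No strand of any element passed the test for a change with Tdg knockout. The test covered 1246 features whose coverage averaged 0.1 or more over the 8 B16 libraries, and 0 had an adjusted p under 0.05 (limma on log2 of coverage plus 0.1, Benjamini-Hochberg adjustment, smallest adjusted p 0.235), so 0.0% was called in either direction. Before adjustment, 15 features (1.2%) were higher and 27 (2.17%) were lower in Tdg KO at p under 0.05. The split was 21 and 17 with each library centred on its median, 17 and 17 with quantile normalization, and 19 and 21 with median-ratio scaling. The groups did not overlap for 81 higher features (6.5%) and 264 lower features (21.2%). After median-ratio scaling those counts were 161 (12.9%) and 175 (14.0%). Over all features the median log2 change came to -0.05. The count depended on single libraries: 1 feature, B1_Mur3 sense, passed without WT library 2, and 6 passed with either DKO library left out (4 higher and 2 lower). The same 6 passed both times: RMER17B and LTRVL30 in sense and RLTR20B4_MM and BGLII_Mur in antisense were higher, and RLTR46A2 in sense and LX5c in antisense were lower. All 6 were at 0 in both libraries of 1 of the 2 genotypes. Without WT library 2, the counts before adjustment were 58 higher and 40 lower.

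How large a change the data still allow differed between elements. The intervals here are those of coverage as deposited, without scaling for depth, and a shift common to all features of a library would move them. Among 721 features whose coverage averaged 1 or more over the 4 libraries, the 95% interval of the change lay within 2-fold in either direction for 80 (11.1%). It stayed below a 2-fold rise for 311. These narrow intervals were mostly antisense, with 60 of the 80, and 24 of them belonged to young LINE-1 elements.

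**Figure D2:**
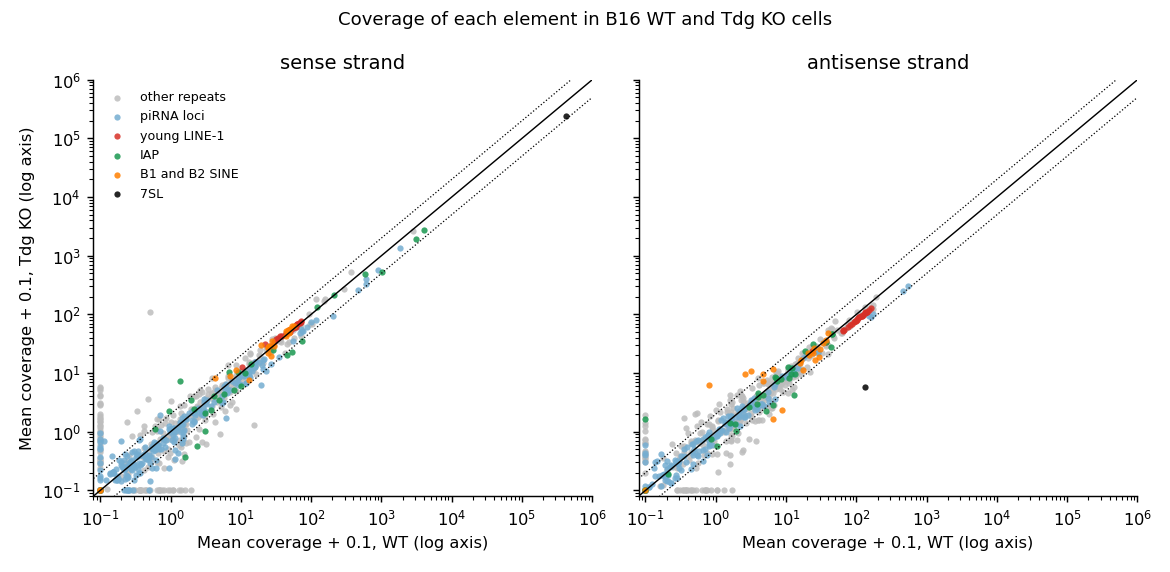
Mean coverage plus 0.1 in the 2 Tdg KO libraries (vertical, log axis) against the 2 WT libraries (horizontal, log axis) for each element, sense at left and antisense at right, coloured by element class. The solid line marks equal coverage and the dotted lines 2-fold differences. The scatter is wider at low coverage, but some better covered features also lie far from the line. Among these are IMPB_01 sense (0.41 in WT, 111 in Tdg KO) and 7SL antisense (131.6 and 5.62).

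Young LINE-1 elements, the L1Md families that include the copies still able to move in mice, were mostly read in antisense. The best covered was L1MdF_IV. Its antisense coverage was 153 and 164 in WT and 141 and 114 in Tdg KO. Both Tdg KO libraries lay below both WT libraries as deposited, though the groups overlapped after median-ratio scaling, and the log2 change was -0.33 (95% interval -0.97 to 0.32, adjusted p = 1.0 by limma). All 27 L1Md entries had a negative antisense change, with a median of -0.33 against -0.12 over all antisense features. For 24 of the 27 the groups did not overlap, against 21.2% of all features, and for 13 after median-ratio scaling, against 14.0%. As deposited, the interval for 24 of the 27 stayed within 2-fold. Because these sequences are alike, a read may be counted in several of them, and they are not 27 separate measurements. Tdg KO library 2 was the lowest of the 4 libraries in all 27. Summed antisense coverage of the L1Md entries was 2669 and 2908 in WT and 2505 and 1973 in Tdg KO, a ratio of 0.803 (two-sided exact permutation p = 0.333, the smallest possible). That ratio was 0.898 without Tdg KO library 2 and 0.852 after median-ratio scaling. The scaled sums were 3883 and 3112 in WT, against 2902 and 3057 in Tdg KO, with WT library 1 alone high. Without WT library 1 the scaled ratio was 0.957.

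On the sense strand, L1MdF_IV had a coverage of 46.2 and 98.6 in WT and 95.7 and 56.5 in Tdg KO. WT library 1 and Tdg KO library 2 were low, and the groups overlapped (log2 change 0.12, 95% interval -0.94 to 1.19, adjusted p = 1.0 by limma). The same held across the list: WT library 1 was the lowest in all 27 entries and the groups overlapped in all 27. L1MdA_I, L1MdTf_I and L1MdGf_I, consensus sequences of the families with active copies, were outside the naming rule and were picked for that role. Their sense changes were 0.09, 0.20 and 0.24 on the log2 scale, each with groups that overlapped. The summed sense coverage was 795 and 1835 in WT and 1775 and 1079 in Tdg KO, a ratio of 1.08 that became 0.778 without WT library 1 and 1.79 without WT library 2.

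Older LINE-1 entries also had lower summed antisense coverage in both Tdg KO libraries, at 1178 and 1267 in WT, against 1096 and 885 in Tdg KO (ratio 0.810, two-sided exact permutation p = 0.333, the smallest possible). After median-ratio scaling these sums overlapped (ratio 0.860, and 0.974 without WT library 1). Antisense coverage of the best covered, L1_Mus1_3end, was 199 and 144 in WT and 124.5 and 126 in Tdg KO. Both Tdg KO libraries lay lower as deposited (log2 change -0.43, 95% interval -1.09 to 0.23, adjusted p = 1.0 by limma). WT library 1 alone was high, and the groups overlapped after median-ratio scaling. The sign of this change was kept under 18 of 19 alternatives. Of the 44 older LINE-1 entries with enough antisense coverage, 20 were lower and 1 was higher without overlap, against 21.2% and 6.5% of all features, and the median log2 change was -0.33. After scaling 17 were lower and 2 higher, against 14.0% and 12.9%. Related entries may share reads here too. Of the 39 in sense, 6 were lower and 2 higher without overlap, with a median of 0.10.

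IAP elements gave the highest coverage after 7SL, nearly all of it sense. The internal region IAPEZI had a sense coverage of 5205 and 2942 in WT and 3005 and 2450 in Tdg KO. WT library 1 was high and the other 3 lay close together, so the groups overlapped (log2 change -0.53, 95% interval -1.55 to 0.50, adjusted p = 1.0 by limma). Without WT library 1 the change was -0.12. IAPEZI antisense coverage was 48.9 and 41.2 in WT and 52.4 and 41.4 in Tdg KO, with a log2 change of 0.05 (95% interval -0.57 to 0.68). Of 31 IAP entries in sense, 3 were higher and 9 lower without overlap and 19 overlapped, against 6.5% and 21.2% of all features, and the median change was -0.29. After scaling 3 were higher and 3 lower, against 12.9% and 14.0% of all features. In antisense, 1 of 32 was higher and 4 were lower without overlap, with a median of -0.06.

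In sense, 1 IAP entry was higher and 1 lower at p under 0.05 by limma before adjustment. Only the higher one, an LTR at low coverage, met the naming rule. IAPLTR2a2_Mm, the LTR that carries the promoter of its subfamily, was at 0.66 and 1.89 in WT, against 3.97 and 10.2 in Tdg KO. Both Tdg KO libraries were higher (log2 change 2.40, 95% interval 0.65 to 4.14), but the change did not pass (adjusted p = 0.967 by limma). The Trp53 KO libraries were at 0.66 and 1.33 and the DKO libraries at 7.68 and 5.51, so the 4 libraries without Tdg were all above the 4 with it. These values are as deposited, and coverage was generally higher in DKO: the factor per library was 1.76 and 1.37, against 0.61 and 0.52 in Trp53 KO. How many features split this way was not counted. In antisense this LTR was at 6.07 and 8.56 in WT, against 7.85 and 6.54 in Tdg KO, with overlap.

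Among the other endogenous retroviruses, the MLV-like elements were the best covered, and their sums overlapped between genotypes. RLTR4I_MM, an internal region related to murine leukaemia virus, had a sense coverage of 2976 and 2711 in WT and 3048 and 2272 in Tdg KO (log2 change -0.11, 95% interval -1.14 to 0.92). Summed over 14 MLV-like entries, sense coverage was 3469 and 3612 in WT and 4091 and 3136 in Tdg KO, a ratio of 1.02. That sum is mostly RLTR4I_MM. Of the 13 entries kept in sense, 4 were higher and 0 lower without overlap, against 6.5% and 21.2% of all features, with a median change of 0.45. After scaling 7 were higher and 0 lower, against 12.9% and 14.0% of all features. These entries may share reads. The internal region MMERGLN_I, picked after its values were seen, had 270 and 476 in WT, against 557 and 507 in Tdg KO (log2 change 0.57, adjusted p = 1.0 by limma). The VL30 element MMVL30, a defective retrovirus-like element, was at 37.4 and 36.4 in WT, against 34.0 and 32.5 in Tdg KO (log2 change -0.15, 95% interval -0.95 to 0.65). Of the 6 VL30 entries in sense, 2 were higher without overlap and 1, MMVL30, was lower, against 6.5% and 21.2% of all features. The median change was 0.37. One of the higher entries, LTRVL30, held only about 1.65 and 2.01 fragments in the Tdg KO libraries. After median-ratio scaling 2 of the 6 were higher and 0 lower, against 12.9% and 14.0% of all features, so MMVL30 then overlapped. After scaling, the VL30 sums were higher in Tdg KO without overlap, barely so in sense (ratio 1.12) and also in antisense (ratio 1.19). The early transposon MMETN was at 14.2 and 10.4 in WT, against 11.3 and 5.74 in Tdg KO in sense, with overlap. MT2B2_LTR, an LTR of the MERVL group, was at 22.6 and 31.2 in WT, against 30.9 and 17.7 in Tdg KO in sense, also with overlap. Adjusted p was 1.0 by limma for each of these elements.

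Among the ERVB, MYSERV and MMERVK entries, groups of endogenous retroviruses, an internal region and an LTR had lower sense coverage in both Tdg KO libraries than in either WT library. The internal region MMERVK10C had a sense coverage of 42.4 and 41.4 in WT and 26.1 and 17.3 in Tdg KO. The 2 WT libraries nearly coincided and both Tdg KO libraries lay below them (log2 change -0.98, 95% interval -2.12 to 0.17, adjusted p = 1.0 by limma). In antisense it had 32.2 and 39.8 in WT against 34.6 and 27.5 in Tdg KO, with overlap. The LTR ERVB7_2-LTR_MM had a sense coverage of 15.6 and 14.7 in WT and 0 and 2.41 in Tdg KO, and an antisense coverage of 0 and 0.81 in WT and 1.62 and 2.20 in Tdg KO. It lay lower in sense and higher in antisense, neither past the test (adjusted p = 0.956 and 1.0 by limma). The sense coverage of ERVB7_2-LTR_MM in the other genotypes was higher than in Tdg KO, at 6.45 and 12.9 without Trp53 and at 20.8 and 9.50 without both genes. Summed over the 33 entries, sense coverage was 83.7 and 95.8 in WT and 65.0 and 42.6 in Tdg KO, a ratio of 0.600 (two-sided exact permutation p = 0.333, the smallest possible), which ranged from 0.475 to 0.724 with 1 library left out. The difference rests on the 2 entries above: without them the sums were 25.7 and 39.6 in WT, against 38.9 and 22.9 in Tdg KO, which overlap (ratio 0.946). Of the 21 kept in sense, 5 were lower and 0 higher without overlap, close to the 21.2% lower over all features, with a median change of -0.18.

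**Figure D3:**
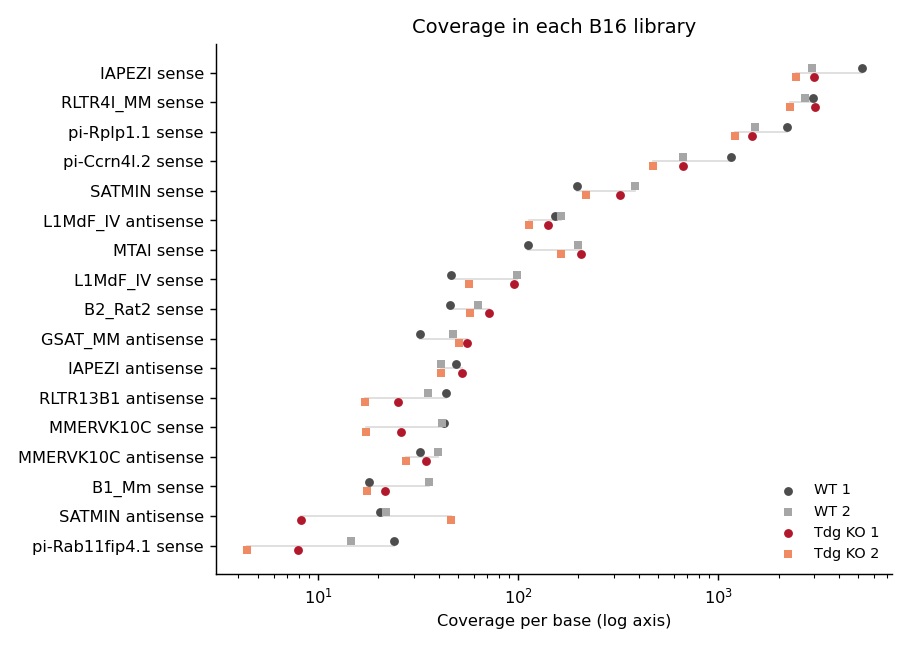
Coverage per base (log axis) of 17 element strands in WT libraries 1 and 2 (dark and light grey) and Tdg KO libraries 1 and 2 (dark and light red). For MMERVK10C sense, RLTR13B1 antisense and pi-Rab11fip4.1 sense both Tdg KO libraries lie below both WT libraries, while for IAPEZI sense WT library 1 alone is high.

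In the large group of other LTR elements, 4 RLTR entries were named for lower antisense coverage in Tdg KO. RLTR13B1 was at 43.6 and 35.6 in WT, against 25.0 and 17.2 in Tdg KO (log2 change -0.92, 95% interval -1.74 to -0.11, adjusted p = 1.0 by limma). RLTR13G was at 9.90 and 11.3 in WT, against 6.20 and 2.76 in Tdg KO, and RLTR13D4 at 4.59 and 7.38 in WT and 1.94 and 2.89 in Tdg KO. RLTR10F was at 5.74 and 5.60 in WT, against 2.82 and 0.97 in Tdg KO. These 4 were chosen by their p-values among features without overlap, and none passed after adjustment. Over the 210 antisense features of this list, 12 were higher and 37 lower without overlap (5.71% and 17.6%, against 6.5% and 21.2% of all features), with a median change of 0.00.

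Some elements were read in 1 genotype alone, at a few fragments. In sense, 24 of 880 elements had coverage in both Tdg KO libraries and in neither WT library, and 16 showed the reverse. The libraries also differed in how many elements had any sense coverage. That number was 512 and 570 in WT libraries 1 and 2, and 572 and 542 in Tdg KO libraries 1 and 2. In antisense these numbers were 3 and 4. With the mean of the genotype that had them above a floor of 3 fragments per library, the sense counts were 4 and 1 and the antisense counts 0 and 0. LTRIS4A sense was at 0 in WT, while the Tdg KO libraries had 6.15 and 3.76, about 9.79 and 5.98 fragments, which is at least 2.63-fold higher (adjusted p = 0.235 by limma). The Trp53 KO libraries, which have Tdg, also held LTRIS4A (0.61 and 2.51). RLTR20A4 sense was likewise at 0 in WT. It was at 11.1 in Tdg KO library 1 and 0.45 in library 2, at least 3.79-fold higher on average, with nearly all of it from library 1. RMER17B sense was absent from the WT and Trp53 KO libraries (0 in all 4). It reached 1.33 and 0.98 with Tdg knocked out, at least 1.20-fold above WT, and 3.24 and 1.48 with both genes knocked out. RMER15 sense was at 0 in WT and at 0.29 and 3.57 in Tdg KO, a mean at least 1.24-fold higher that rests on library 2, since library 1 held under 1 fragment. The DNA transposon URR1B was at 0 in WT and at 3.12 and 2.58 in Tdg KO in sense (adjusted p = 0.723 by limma), values under the floor, so no fold is given.

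One satellite entry was high in a single Tdg KO library. IMPB_01 sense was at 0.47 and 0.35 in WT, against 221.5 and 0.47 in Tdg KO, so Tdg KO library 2 was at the WT level (adjusted p = 1.0 by limma). The DKO libraries were split likewise, at 832 and 1.31.

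The levels of B1 and B2 SINEs in sense, as deposited, overlapped between the genotypes. B1_Mus1 sense was at 22.6 and 32.1 in WT, against 27.6 and 43.4 in Tdg KO, with overlap (log2 change 0.36, 95% interval -1.41 to 2.13). B1_Mm sense was at 18.0 and 35.95 in WT, against 21.5 and 17.5 in Tdg KO, also with overlap (log2 change -0.39, 95% interval -1.38 to 0.60). B2_Rat2, the best covered B2 entry in sense together with B2_Rat4, was at 45.6 and 63.0 in WT, against 71.6 and 57.6 in Tdg KO (log2 change 0.26, 95% interval -0.91 to 1.43). For the 9 B1 entries kept in sense the groups overlapped in all 9 (median change -0.04), and for the 12 B2 entries in all 12 (median change 0.24). After median-ratio scaling, 7 of the 12 B2 entries in sense were higher without overlap, against 12.9% of all features. The summed B2 sense coverage was then 478 and 602.5 in WT, against 674 and 668 in Tdg KO, without overlap (ratio 1.24). These entries may share reads. None of the 16 B1 and 24 B2 features averaging 1 or more had an interval within 2-fold, so smaller changes were not resolved. Without WT library 2, B1_Mur3 sense passed (log2 change 6.37, adjusted p = 0.0248 by limma). WT library 1 was then its lone control, at 0, while WT library 2 was at 8.47 and the Tdg KO libraries at 9.20 and 7.26.

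Centromeric satellites did not separate the groups in sense. Minor satellite (SATMIN) sense coverage was 196.5 and 382 in WT, against 323 and 217 in Tdg KO (log2 change -0.05, 95% interval -1.50 to 1.41). Its antisense coverage was 20.4 and 21.9 in WT and 8.23 and 46.4 in Tdg KO, where the Tdg KO libraries lay on either side of WT. Major satellite (GSAT_MM) antisense was at 32.4 and 47.5 in WT, against 55.8 and 50.7 in Tdg KO. Both Tdg KO libraries were higher, by a small margin as deposited (log2 change 0.44, 95% interval -0.58 to 1.46), and without overlap after median-ratio scaling too. Its sense coverage was 0 and 5.09 in WT and 5.05 and 1.26 in Tdg KO. Adjusted p was 1.0 by limma for all 4.

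**Figure D4:**
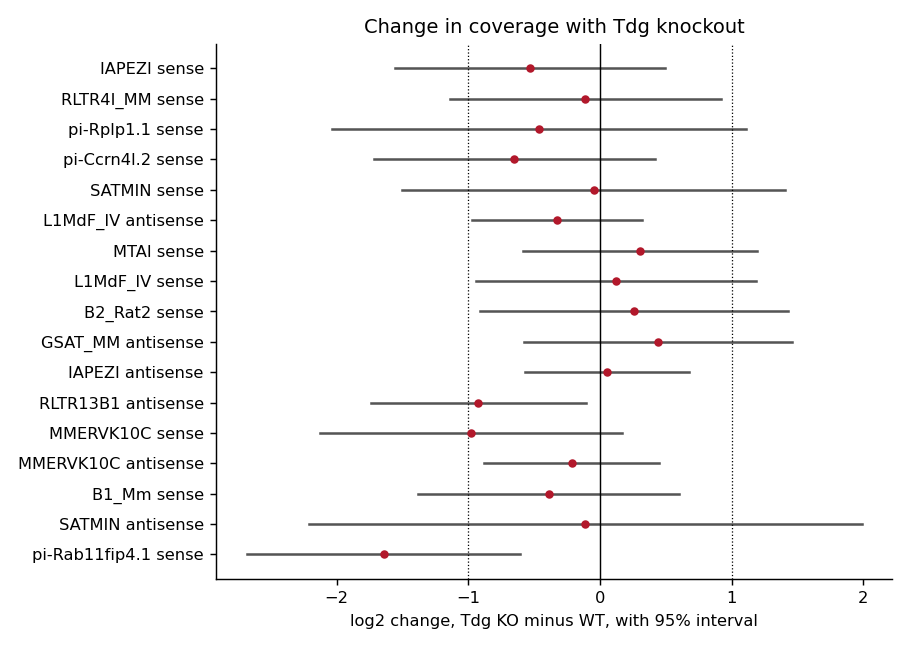
Log2 change in coverage, Tdg KO minus WT, with 95% interval from limma for the same 17 element strands. Dotted lines mark 2-fold in either direction. The interval of MMERVK10C sense reaches from -2.12 to 0.17, and that of pi-Rab11fip4.1 sense from -2.68 to -0.60, although the latter did not pass after adjustment.

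piRNA loci had lower summed coverage in both Tdg KO libraries than in either WT library. The gap was smaller without WT library 1 and larger without WT library 2. Sense coverage summed over the 352 loci was 7461 and 4590 in WT and 4477 and 3481 in Tdg KO, a ratio of 0.660 (two-sided exact permutation p = 0.333, the smallest possible). Without WT library 1 the ratio was 0.867. After median-ratio scaling the sums were 10850 and 4911 in WT, against 5186 and 5393 in Tdg KO, which overlap, and the ratio of 0.671 became 1.08 without WT library 1. The direction of the scaled ratio thus depended on whether WT library 1 was kept. The locus over Rplp1, the gene of a ribosomal stalk protein (chromosome 9, 61913283 to 61914510 in GRCm38), was the best covered in sense, at 2208 and 1522 in WT and 1470 and 1206 in Tdg KO (log2 change -0.46, 95% interval -2.03 to 1.11). The locus over Ccrn4l, now Noct, the gene of nocturnin, a protein with circadian expression (chromosome 3, 51224447 to 51251654), was at 1152 and 666 in WT, against 662 and 470 in Tdg KO. Both were lower in Tdg KO without overlap as deposited, and both overlapped after median-ratio scaling. Neither passed (adjusted p = 1.0 by limma), and without WT library 1 the log2 changes were -0.19 and -0.26. The Ccrn4l locus was at 1450 and 858 in the Trp53 KO libraries, against 611.5 and 392 in the DKO libraries. There all libraries without Tdg lay below all with it, as deposited. The Rplp1 locus, at 2100 and 2619 against 4720 and 1158, had no such split.

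The locus over Rab11fip4, the gene of an effector of Rab11 in membrane traffic (chromosome 11, 79591021 to 79698016), was furthest apart among well-covered loci named here. Its sense coverage was 24.1 and 14.6 in WT and 7.94 and 4.43 in Tdg KO. Both Tdg KO libraries were lower (log2 change -1.64, 95% interval -2.68 to -0.60), and the change was -1.28 without WT library 1 (adjusted p = 0.752 by limma, and 1.0 without it). The locus was at 5.05 and 3.99 in the DKO libraries, and in those of Trp53 KO it was at 20.04 and 15.6, so the 4 libraries without Tdg were all below the 4 with it. Its WT and Tdg KO values did not overlap after median-ratio scaling either. Of 117 entries named for genes and kept in sense, 17 were higher and 39 lower without overlap (14.5% and 33.3%, against 6.5% and 21.2% of all features), with a median change of -0.29. Of 126 named by cytoband, 5 were higher and 40 lower (3.97% and 31.7%), with a median of -0.18. After median-ratio scaling the counts were 21 and 20 for the former (17.9% and 17.1%) and 12 and 17 for the latter (9.52% and 13.5%). Over all features the scaled shares were 12.9% higher and 14.0% lower. Many entries are versions of 1 locus: without the version number there were 72 and 71 names. The best covered of these in sense, a locus of band 14-qA3, was at 823.5 and 381.5 in WT, against 370 and 286 in Tdg KO. In antisense the best covered was a locus of band 10-qC1, with 755 and 348 in WT against 338 and 274 in Tdg KO. For both, WT library 1 was high and the other 3 lay closer together, and without it the log2 changes were -0.23 and -0.19. The 14-qA3 locus was at 960 and 607 in the Trp53 KO libraries, against 276 and 215 in the DKO libraries. The 10-qC1 locus was at 875 and 566, against 256 and 204.5. At both loci, as deposited, the 4 libraries without Tdg were thus all below the 4 with it. With Trp53 intact the margin was small, at 381.5 in WT library 2 against 370 in Tdg KO library 1, and 348 against 338. Once the factor per library was divided out (0.93 in WT library 2, 0.86 and 0.65 in Tdg KO), WT and Tdg KO overlapped at both loci. The share of all features with such a split was not counted.

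Element classes differed widely in the share of their coverage on the antisense strand. It was 77.0% and 61.3% in WT and 58.5% and 64.7% in Tdg KO for young LINE-1, and 66.0% and 59.2% in WT and 62.4% and 60.2% in Tdg KO for B1. IAP stayed at 2.74% and 5.09% in WT and 4.89% and 5.12% in Tdg KO. The genotypes overlapped for all 3 of these lists. For the ERVB, MYSERV and MMERVK entries, whose sense coverage was lower, the antisense share was 59.8% and 63.3% in WT and 70.0% and 73.8% in Tdg KO, with no overlap (two-sided exact permutation p = 0.333, the smallest possible). Without MMERVK10C and ERVB7_2-LTR_MM the shares were 78.2% and 75.9% in WT, against 74.9% and 79.7% in Tdg KO, which overlap. The other LTR elements (64.5% and 65.1% in WT, 61.2% and 63.1% in Tdg KO) and the MaLR elements (59.1% and 61.0% in WT, 61.5% and 61.2% in Tdg KO) did not overlap by small margins, nor did 7SL, whose antisense share was under 0.05% in all 4 libraries.

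**Figure D5:**
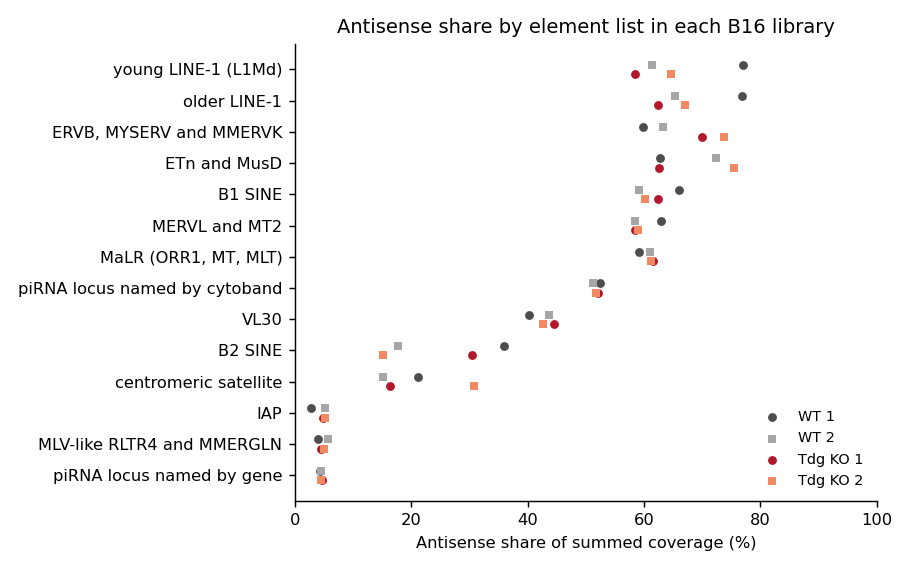
Antisense share (percent) of the coverage summed over each element list, in WT libraries 1 and 2 (dark and light grey) and Tdg KO libraries 1 and 2 (dark and light red). For the ERVB, MYSERV and MMERVK entries both Tdg KO libraries (70.0% and 73.8%) lie above both WT libraries (59.8% and 63.3%), a gap that 2 entries carry.

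For single elements, the balance between strands did not pass in any of 730. Before adjustment the log2 ratio of sense to antisense was higher in 19 (2.6%) and lower in 13 (1.78%), and 0.0% passed after it (smallest adjusted p 0.114 by limma). The largest change among the better covered was ERVB7_2-LTR_MM (log2 ratio change -7.65, adjusted p = 0.421 by limma), whose values are above. Without Tdg KO library 2, 2 elements passed, RLTR20A4 and RLTR32_Rn. The lower of the 2 strands, the coverage that could pair into double-stranded RNA, passed in 0 of 495 elements (7 higher, 1.41%, and 5 lower, 1.01%, before adjustment). RMER17B and URR1B had the smallest adjusted p, RMER17B with 0 in each WT library, against 1.33 and 0.98 in Tdg KO (adjusted p = 0.196 by limma). RMER17B and LTRIS4A passed with either DKO library left out, and B1_Mur3 without WT library 2.

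The change with Tdg knockout was then set against the change with Tdg loss in cells without Trp53. The contrast of the 2 changes passed in 0 of 1246 features (smallest adjusted p 0.0662 by limma). Before adjustment, 427 features (34.3%) had a lower change with Trp53 intact and 10 (0.803%) a higher one. That balance depended on the scaling: 148 were lower and 63 higher after median-ratio scaling, 75 and 82 after quantile normalization, and 53 and 169 after median centring. The median of the contrast was -1.66 on the log2 scale, so most features shared an offset, and that median was -0.44 after median-ratio scaling, 0.18 after quantile normalization and 0.52 after centring each library on its median. Without DKO library 1, 8 features were higher and 78 lower after adjustment, without DKO library 2, 8 and 298, and without Trp53 KO library 1, 1 feature passed.

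B1_Mm sense, with a contrast below that offset, was among the 4 better covered features with the smallest p for the contrast. It was at 18.0 and 35.95 in WT, against 21.5 and 17.5 in Tdg KO, while the libraries without Trp53 had 6.91 and 5.90 with Tdg, 219 and 141 without it. The contrast was -5.15 (95% interval -6.56 to -3.75, adjusted p = 0.0662 by limma). Median-ratio scaling gave a B1_Mm contrast of -3.60 (adjusted p = 0.0747 by limma), and quantile normalization one of -3.71 (adjusted p = 0.0422 by limma), so it passed under the latter alone of the 2. The GSAT_MM antisense contrast was -4.04 (adjusted p = 0.0662 by limma), which median-ratio scaling brought to -2.48 (adjusted p = 0.126 by limma). IAPEZI sense lay on the other side of the offset, with a contrast of 0.76 (adjusted p = 0.383 by limma). SATMIN sense lay further on that side, with a contrast of 3.56 (95% interval 1.51 to 5.62, adjusted p = 0.0757 by limma). It was at 343.5 and 132 in the Trp53 KO libraries, against 12.3 and 24.3 in the DKO libraries. In antisense the SATMIN contrast was -4.65 (adjusted p = 0.0757 by limma).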

How the data were processed

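The authors deposited mean signal values named as piPipes output, taken here as coverage per base of each element and strand, with antisense values given a minus sign that was dropped. HISAT2 and the mm10 build appear in the submitters' processing notes. How reads matching several elements were treated is not given in the sources used here, nor are aligner settings or read numbers. For 613 of 617 elements with at least 6 nonzero values, all values were whole multiples of a step (99.4%, tolerance 0.02 base), so the deposited signal holds no scaling for depth. The lowest values most often equalled 298 covered bases, taken as 1 fragment, and the floor is 3 fragments per library. That size held for 21 of the 617 elements, 24.6% had a lowest value between 250 and 300 bases and the median lowest was 584, so the lower bounds on folds are approximate. Depth in reads is unknown. Sums add coverage per base over elements without weighting by length.

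Of 2035 rows, 885 had signal in B16. After 5 exact duplicates were removed, 880 elements remained, 528 repeats and 352 piRNA loci. Each strand with a mean of at least 0.1 over the 8 B16 libraries was fitted as log2 of coverage plus 0.1 with limma 3.58.1 (eBayes with trend, R 4.3.3), 4 group means and 4 residual degrees of freedom, two-sided, Benjamini-Hochberg at 0.05. The fit was tested on simulated data. Summed coverage was compared by an exact permutation test. Alternatives were other pseudocounts, filters, scalings, robust eBayes, the 2 groups alone, a replicate block, no piRNA loci, and each library left out. Leaving 2 entries out of the ERVB list, and counting non-overlap after median-ratio scaling, were added after seeing the data. Replicate numbers did not pair the samples.

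Members and lists were chosen with earlier results of these data known. Lists are name patterns, and misplaced names were moved after the names were read, without use of values. Elements were named as the best covered of each list on each strand (and the second best for IAP, young LINE-1, B1, B2 and piRNA loci), as the 6 higher and 6 lower features with the smallest p among those with a mean of at least 1 and no overlap, as the 5 and 5 with the smallest p among all, as the 4 with the smallest p for strand ratio, lower strand and the contrast between backgrounds, and as the centromeric satellites. L1MdA_I, L1MdTf_I, L1MdGf_I, B1_Mur3, BGLII_Mur, LX5c, MMERGLN_I, RMER15 and RLTR32_Rn fell outside this rule and were chosen after their values were seen. Host gene positions were read from RefSeq (GRCm38.p6). The positions are those of the host genes, not of the piRNA loci.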

Additional observations from a re-analysis of the deposited data

How the results depend on the processing

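The counts of 0 features for Tdg KO against WT stayed at 0 under every pseudocount, filter, scaling, robust, 2-group, replicate block and no-piRNA alternative. Leaving out single libraries gave 0 to 6 features, 0 to 2 for the strand ratio, 0 to 2 for the lower strand, and 0 to 306 for the contrast between backgrounds. With a pseudocount 10 times lower, 5 strand ratios (3 higher and 2 lower) and 7 contrasts passed. A mean coverage of at least 1 and quantile normalization each gave 1 contrast. The causes were not tested. Where a group was left with 1 library, that library was assumed to vary like the others. With the replicate block, 0 features, 0 strand ratios, 0 lower strands and 0 contrasts passed, with 17 features higher and 28 lower before adjustment. The deviations of same-numbered WT and Tdg KO libraries had a correlation of -0.00868 over features, so the numbers were not treated as pairs. The ratio of summed repeat coverage ranged from 0.713 to 0.947 with 1 library left out and was 0.862 after median-ratio scaling. Of 76 named features, 46 kept their sign under every alternative and 4 passed under at least 1. Unknown depth and 2 libraries per genotype limit the precision: the median residual SD was 0.667 on the log2 scale.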

Other observations

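IAPEZI and several piRNA loci shared their highest and lowest library among the 8 of B16, though not the order between them. IAPEZI sense, the 14-qA3 locus in sense, the 10-qC1 locus in antisense, pi-Ccrn4l.2 sense and pi-D10Wsu102e.2 antisense were each highest in Trp53 KO library 1 (6322, 960, 875, 1450 and 246) and lowest in DKO library 2 (1805, 215, 204.5, 392 and 68.5). Whether these loci hold reads of IAP copies was not tested.

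The libraries high in IMPB_01 sense, Tdg KO library 1 (221.5) and DKO library 1 (832), were also the highest in RLTR20A4 sense (11.1 and 13.6, against 0 in the WT and Trp53 KO libraries). Antisense 7SL coverage was highest in WT library 1 (246.8) and DKO library 1 (422).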
